A study of Homo sapiens with 4 samples.

Results

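The CCT chaperonin, also called TRiC, is the protein-folding machine of the cytosol that brings newly made tubulin and actin to their native form. Its transcripts were measured here in SW1990, an established human pancreatic cancer line. The subunit genes were taken by symbol: TCP1 (subunit alpha), CCT2 (beta), CCT3 (gamma), CCT4 (delta), CCT5 (epsilon), CCT6A (zeta), CCT7 (eta) and CCT8 (theta). All 8 were found among the 25798 gene IDs of the count table, and all 8 passed the filter on low counts that left 17090 genes. The study compared 2 libraries of total RNA from cells given 100 nM erianin for 48 h with 2 libraries from cells given DMSO, the solvent, for 48 h. All 4 libraries came from wild-type SW1990 cells of a single line, grown in DMEM with serum, so they describe 1 tumour's cells in culture. The study's title names AKT and ASK1 as targets of erianin, a plant bibenzyl that is also known to bind tubulin.

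CCT is built as 2 stacked rings of 8 different subunits, each encoded by its own gene and each present once per ring. The subunits bind and split ATP, which closes the ring over the substrate. CCT2, CCT4, CCT5 and CCT7 form the side of the ring with the stronger use of ATP, and TCP1, CCT3, CCT6A and CCT8 form the other side. Prefoldin hands nascent actin and tubulin chains to CCT, phosducin-like proteins bind the ring as cochaperones, and the tubulin cofactors TBCA to TBCE join the released tubulins into heterodimers. Dividing tumour cells are known to carry much CCT, since they make much tubulin and actin.

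The genes lie at separate places in the genome. On GRCh38, TCP1 lies on chromosome 6 (159778498 to 159789749, minus strand), CCT2 on chromosome 12 (69585334 to 69601570, plus strand) and CCT3 on chromosome 1 (156308968 to 156367873, minus strand). CCT4 (61868089 to 61888804, minus strand) and CCT7 (73233420 to 73253021, plus strand) are both on chromosome 2. CCT5 lies on chromosome 5 (10249921 to 10266412, plus strand), CCT6A on chromosome 7 (56051630 to 56063989, plus strand) and CCT8 on chromosome 21 (29055805 to 29073797, minus strand). Since each gene has a start region of its own, the 120 bases before the start of a RefSeq entry are shown for some subunits. These are the subunits that hold an ETS core there, CGGAAGT on either strand, given in capitals. Each printed stretch lies inside the gene span given above, because these RefSeq entries start downstream of the gene's first annotated base. ETS factors are activators that bind GGAA-centred sites. The sequences are from RefSeq on GRCh38.p14, read 5′ to 3′ on the gene's strand and ending at the base before the RefSeq entry's start.
TCP1, chr6:159789603-159789722, minus strand: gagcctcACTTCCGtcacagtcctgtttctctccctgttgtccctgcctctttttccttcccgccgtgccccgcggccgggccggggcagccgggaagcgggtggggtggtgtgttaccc
CCT2, chr12:69585339-69585458, plus strand: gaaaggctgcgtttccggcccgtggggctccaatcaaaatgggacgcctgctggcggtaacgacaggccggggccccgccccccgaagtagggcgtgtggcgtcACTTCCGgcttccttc
CCT7, chr2:73234188-73234307, plus strand: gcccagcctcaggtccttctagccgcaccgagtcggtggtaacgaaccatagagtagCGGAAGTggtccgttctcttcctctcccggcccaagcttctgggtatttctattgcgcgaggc

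RefSeq promoter entries were found for 7 of the 8 subunits (all but CCT6A), 9 entries in all. The 250 bases before the start of the CCT5 entry (10250287 to 10250536) lie inside the CCT5 gene span, which begins at 10249921. Those of CCT3, CCT7 and the downstream CCT2 entry also lie inside their gene spans. At these entries a missing motif does not show its absence upstream of the gene. Counts are of genes with a match in any entry, while the shares are of single entries. In the 250 bases before the start, the ETS core stood in 3 of these 7 genes (113 and 196 bases before the start of TCP1, 16 of CCT2 and 63 of CCT7), and in 5.69% of all 35116 promoter entries. The core GAANNTTC of a heat shock element, the site of HSF1, was present for 2 of 7 (TCP1 and the downstream CCT2 entry), against 5.78% of all entries. The CCAAT box, bound by NF-Y, was present for 4 of 7 (CCT3, TCP1, CCT2 and CCT8), against 32% of all entries, and the GC box GGGCGG, bound by SP1, for 4 of 7 (the same genes), against 42.6%. None of these motifs contains another. The motifs were chosen after the sequences had been seen, and a match is a description of letters only.

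Per length, CCT7 and CCT3 gave the most abundant transcripts of the complex and CCT2 the least abundant. Levels are in FPKM as deposited by the authors, which scale a read count by transcript length and library size, with the rows of a gene summed. CCT7 was at 279 and 308 FPKM in the erianin libraries, against 282 and 298 FPKM in the DMSO libraries. CCT3 was at 159 and 148 FPKM in erianin, against 162 and 165 FPKM in DMSO. CCT2 was at 16.9 and 12.7 FPKM in erianin, against 22.6 and 17.6 FPKM in DMSO. The spread in FPKM between subunits was therefore wide for a complex that holds each of them once per ring. The highest over the lowest was 16.5 and 24.2 in erianin replicates 1 and 2, against 12.5 and 16.9 in DMSO replicates 1 and 2. These FPKM scale for length and library size but not for GC content. CCT7 and CCT3 had 51.3% and 51.2% GC, and the other 6 subunits 43.1% to 45.9%. The part of GC content in these levels was not tested.

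**Figure D1:**
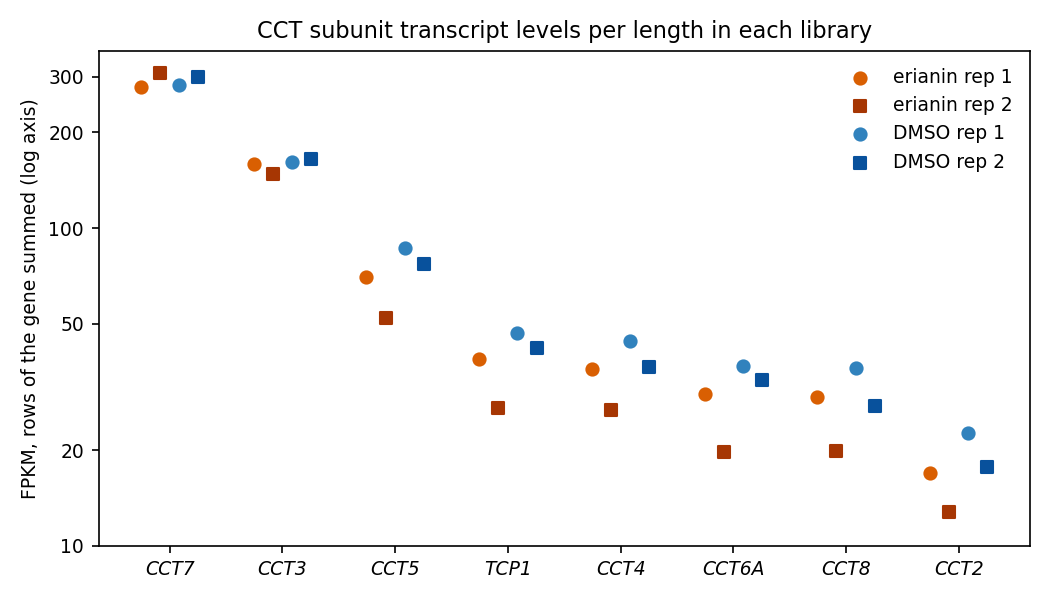
FPKM (rows of each gene summed, log axis) of the CCT subunits in each of the 4 libraries, one point per library, subunits ordered by their mean. CCT7 lies between 279 and 308 FPKM and CCT2 between 12.7 and 22.6 FPKM, with no overlap among CCT7, CCT3, CCT5 and the rest.

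The other subunits stood between these levels. CCT5 averaged 61.2 ± 12.8 FPKM in erianin and 81.9 ± 6.59 FPKM in DMSO (SD, n = 2 each), next after CCT3 in every library. TCP1 averaged 32.9 ± 8.34 FPKM in erianin and 44.4 ± 3.40 FPKM in DMSO, and CCT4 31.3 ± 6.55 FPKM in erianin and 40.3 ± 5.52 FPKM in DMSO (SD, n = 2 each). TCP1 was above CCT4 in each of the 4 libraries, by a ratio of 1.013 to 1.15, and the gap between their means was within the SD of CCT4 in both groups. CCT6A averaged 24.9 ± 7.33 FPKM in erianin and 34.98 ± 2.43 FPKM in DMSO, and CCT8 24.7 ± 6.78 FPKM in erianin and 31.97 ± 6.22 FPKM in DMSO (SD, n = 2 each). CCT6A and CCT8 changed places in erianin replicate 2, so their order was not resolved. CCT7 exceeded CCT3 in every library by a ratio of 1.74 to 2.09, CCT3 exceeded CCT5 by 1.87 to 2.83, and CCT8 exceeded CCT2 by 1.56 to 1.75. CCT7 and CCT3 together made up 66.4% and 74.2% of the summed FPKM of the complex in the erianin libraries, against 61.9% and 66.4% in the DMSO libraries.

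Erianin was then compared with DMSO for each subunit. Of the 8 subunits, 6 had a lower mean CPM (read count scaled to the TMM-adjusted library size) in erianin than in DMSO, by a log2 fold change of -0.40 to -0.28, while CCT3 and CCT7 lay near 0. No subunit passed the test over all genes (edgeR's quasi-likelihood test, adjusted p from 0.575 to 0.991), against 0.0410% of the 17090 genes tested (0.0117% higher and 0.0293% lower in erianin). At an unadjusted p under 0.05 there were 3 (TCP1, CCT5 and CCT6A), each with a fold change below 0, against 8.10% of all genes tested and 5.89% with a fold change below 0. DESeq2's Wald test and limma-voom likewise called 0 of 8, with 5 at an unadjusted p under 0.05 in each. Over all genes, DESeq2 called 0.152% and limma-voom 0%, with 8.84% and 9.79% at an unadjusted p under 0.05. The median log2 fold change of the 8 was -0.34, beside -0.01 over all genes tested, and 6 of 8 were below 0, against 51.3% of all genes. With library totals in place of TMM factors the median of all genes itself shifted to -0.11, that of the subunits to -0.43, and 7 of 8 were below 0. In bulk RNA, fewer cells with these transcripts and less of them per cell cannot be told apart.

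Among the subunits of the strongly ATP-using side, CCT2 was at 36.5 and 30.6 CPM in the erianin libraries, against 48.4 and 38.0 CPM in the DMSO libraries. The groups did not overlap, but erianin replicate 1 came close to DMSO replicate 2. Its log2 fold change was -0.36 ± 0.16 (SE), with a 95% interval from -0.74 to 0.01. CCT4 was at 83.2 and 66.4 CPM in erianin, against 102 and 84.1 CPM in DMSO. Here too erianin replicate 1 lay just under DMSO replicate 2, and the log2 fold change was -0.32 ± 0.15 (SE; interval -0.65 to 0.02). CCT5, the subunit of this side with the second highest level, was at 255 and 198 CPM in erianin, against 302 and 279 CPM in DMSO. Both erianin libraries were below both DMSO libraries, replicate 2 by more, and the log2 fold change was -0.36 ± 0.13 (SE; interval -0.66 to -0.06; adjusted p = 0.575, edgeR). CCT7 was at 579 and 663 CPM in erianin, against 564 and 591 CPM in DMSO. The groups overlapped, with erianin replicate 2 the highest library, and the log2 fold change was 0.11 ± 0.10 (SE; interval -0.13 to 0.34).

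On the other side of the ring, TCP1, the founding member of the family, was at 98.4 and 75.04 CPM in erianin, against 115 and 106 CPM in DMSO. The groups did not overlap, and its log2 fold change was -0.35 ± 0.14 (SE; interval -0.67 to -0.03; adjusted p = 0.575, edgeR). CCT6A was at 88.1 and 63.1 CPM in erianin, against 104 and 95.8 CPM in DMSO. Its groups were apart as well, and it had the most negative value of the 8, a log2 fold change of -0.40 ± 0.16 (SE; interval -0.77 to -0.04; adjusted p = 0.575, edgeR). CCT8 was at 62.4 and 46.7 CPM in erianin, against 75.4 and 57.5 CPM in DMSO. Erianin replicate 1 was above DMSO replicate 2, so the groups overlapped, with a log2 fold change of -0.28 ± 0.18 (SE; interval -0.70 to 0.13). CCT3 was at 355 and 367 CPM in erianin, against 356 and 364 CPM in DMSO. It was the steadiest subunit, with 361 ± 8.92 CPM in erianin and 360.2 ± 5.63 CPM in DMSO (SD, n = 2 each) and a log2 fold change of 0.00 ± 0.09 (SE; interval -0.20 to 0.21). Both erianin libraries lay below both DMSO libraries for 5 of the 8 subunits, against 24.4% of all genes tested, and above both for 0 of 8, against 21.7%.

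**Figure D2:**
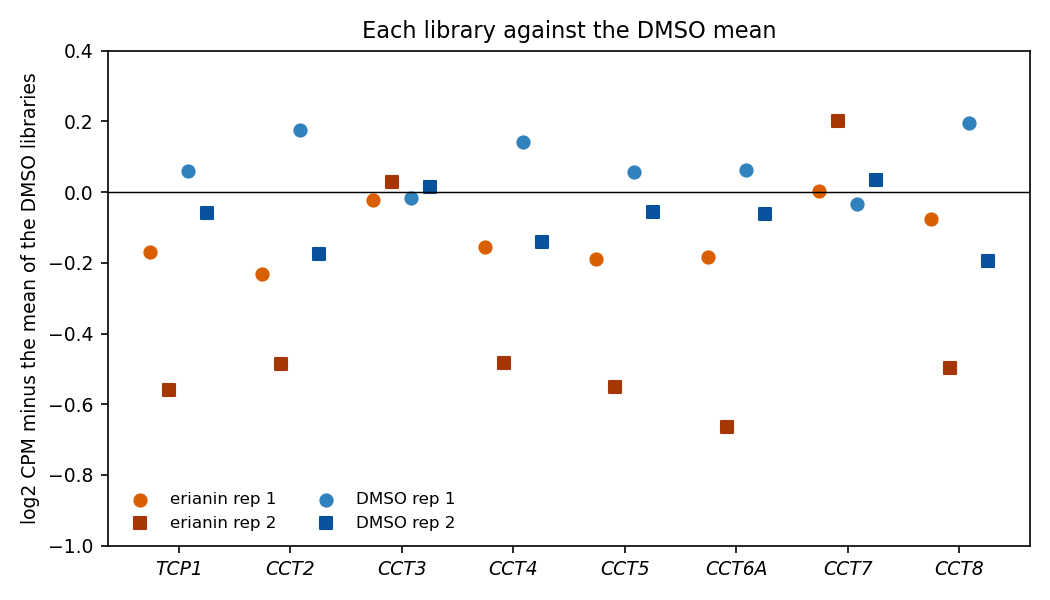
Log2 CPM of each CCT subunit in each library minus the mean of the DMSO libraries, one point per library. For 6 subunits erianin replicate 2 lies lowest, at -0.66 to -0.48, and erianin replicate 1 at -0.23 to -0.08; CCT3 and CCT7 do not show this order.

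The erianin replicates differed from each other. Against the DMSO mean, erianin replicate 1 was lower by 0.23 or less on the log2 scale for every subunit whose value was below 0, with a median over the 8 of -0.16, and erianin replicate 2 had a median of -0.49. The DMSO replicates also differed: DMSO replicate 1 exceeded DMSO replicate 2 by 0.35 (CCT2), 0.28 (CCT4) and 0.39 (CCT8) on the log2 scale, which for CCT8 is more than the fold change between the groups. The values without single libraries therefore moved. Without erianin replicate 1, 6 of 8 subunits passed (edgeR, smallest adjusted p = 0.00473), 5 of them with a fold change below 0 (TCP1, CCT4, CCT5, CCT6A and CCT8) and CCT7 above 0 at 0.19, but 17.5% of all genes passed in that fit. There the single erianin library was assumed to vary like the DMSO pair, which alone supplied the spread. Without erianin replicate 2, without DMSO replicate 1 or without DMSO replicate 2, 0 of 8 passed (edgeR), against 0.132%, 0.345% and 0.404% of all genes. In the same order, 2, 0 and 3 subunits had an unadjusted p under 0.05, against 7.59%, 3.27% and 4.7% of all genes, and the median log2 fold change was -0.17, -0.17 and -0.43. In each of these fits, too, the group left with 1 library was assumed to vary like the other.

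Transcripts of fibroblast marker genes were higher in DMSO replicate 1 than in the other libraries. Of 9 listed markers of fibroblasts, blood and endothelium, 8 (all but CD68, at 193 to 244 CPM in every library) summed to 7.16 and 10.1 CPM in the erianin libraries, against 34.5 and 9.62 CPM in the DMSO libraries. DCN, a fibroblast proteoglycan, had 0 counts in both erianin libraries, against 398 and 8 counts in DMSO replicates 1 and 2. PTPRC, the leukocyte marker, had only 9 counts in DMSO replicate 1 and 0 in the other libraries. PECAM1, an endothelial marker, did not follow this order, at 0.565 and 1.30 CPM in erianin, against 0.879 and 0.801 CPM in DMSO. Whether cells of other types were present, and whether the CCT values differ for that reason, was not tested. The epithelial markers KRT7, KRT8, KRT18 and KRT19 were abundant in all libraries, while EPCAM was at 3.73 to 6.05 CPM in erianin and 2.39 to 4.94 CPM in DMSO. CDH1, the epithelial cadherin, was at 17.6 and 16.4 CPM in erianin, against 19.2 and 18.6 CPM in DMSO, the single one of these 6 markers with a fold change below 0. The library totals ran from 59923935 to 63336545 counts.

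Fold changes followed the GC content of transcripts across all genes, and the 2 subunits near 0 were the GC-richest of the complex. The longest annotated transcripts of CCT7 and CCT3 had 51.3% and 51.2% GC, and those of the other 6 had 43.1% (CCT8) to 45.9% (CCT2). Across 7968 genes averaging 3 or more in log2 CPM, the slope was 0.18 in log2 fold change for each 10 points of GC. Spearman's coefficient was 0.665, a description over genes that share the same 4 libraries. The slope alone was 0.09 for erianin replicate 1 and 0.28 for erianin replicate 2 against the DMSO mean. Between the DMSO libraries, replicate 1 against replicate 2, it was -0.04. In the GC range of 43% to under 46%, a range set after the subunits' GC contents were known, 829 genes had a median log2 fold change of -0.18 with quartiles of -0.34 and -0.02. TCP1, CCT2, CCT5 and CCT6A lay below that lower quartile, and CCT4 and CCT8 lay between it and the median. From 51% to under 52%, 305 genes had a median of 0.04, with CCT3 below it and CCT7 above it.

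**Figure D3:**
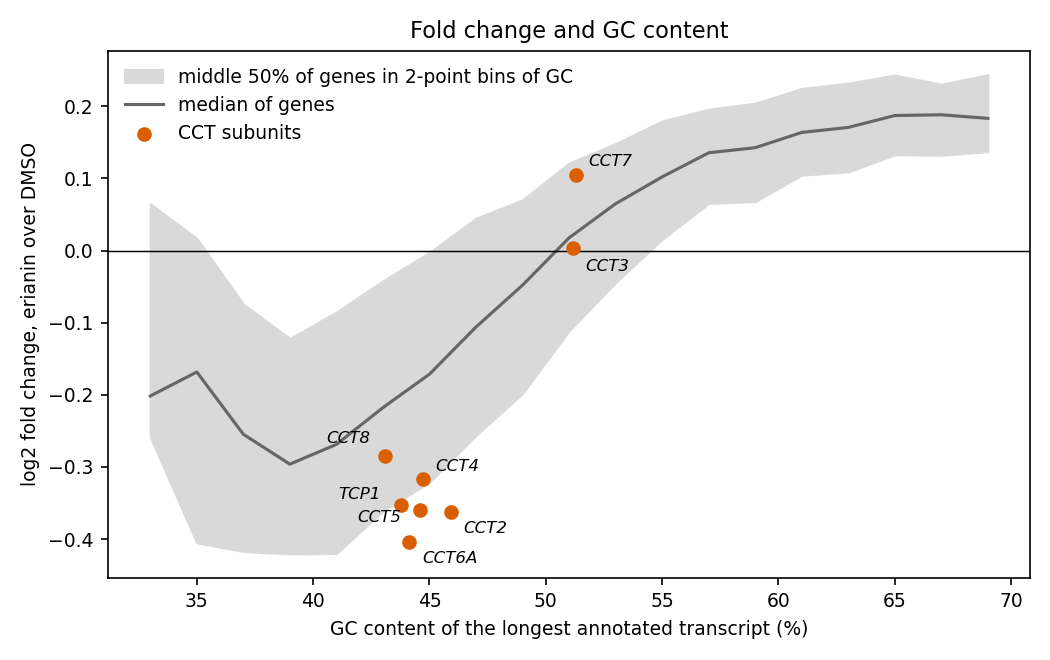
Log2 fold change of erianin over DMSO against the GC content of the longest annotated transcript. The line and band are the median and the middle 50% of genes averaging 3 or more in log2 CPM, in 2-point bins; points are the CCT subunits, 6 of them at 43.1% to 45.9% GC with fold changes of -0.40 to -0.28.

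When each library's dependence on GC and on transcript length was removed, the subunits other than CCT3 came closer to 0, CCT3 turned slightly below it, and 7 of 8 were below 0. The log2 fold changes became -0.26 for CCT2, -0.25 for CCT6A, -0.20 for TCP1, -0.18 for CCT4 and for CCT5, -0.13 for CCT8, -0.04 for CCT3 and 0.05 for CCT7. Their median was -0.18, beside -0.01 over all genes in that fit. No subunit passed (edgeR, smallest adjusted p = 0.724), against 0.0299% of all genes in that fit, and 2 had an unadjusted p under 0.05, against 6.68%. Of the 6 low-GC subunits, 5 came closer to 0 by more than 1.5 times (TCP1, CCT4, CCT5, CCT6A and CCT8), and CCT2 by less. The cause of the dependence on GC was not tested.

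**Figure D4:**
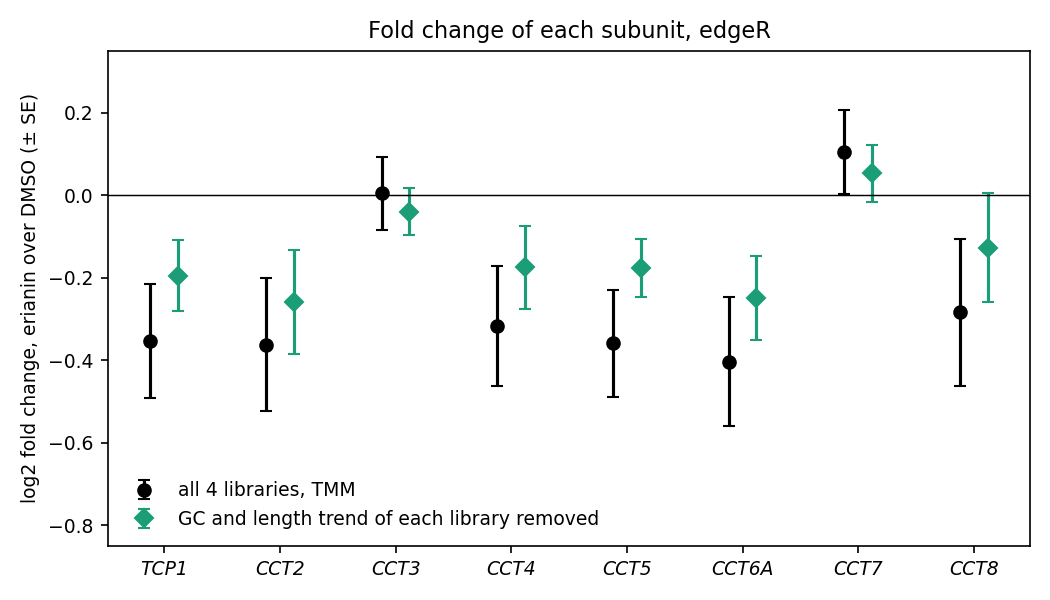
Log2 fold change of erianin over DMSO for each subunit with all libraries (circles) and with the GC and length trend of each library removed (diamonds), bars are standard errors from edgeR. CCT6A goes to -0.25 with the trend removed, against -0.40 without, and CCT3 goes to -0.04 against 0.00.

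The table holds several rows for each gene, which look like transcripts between which reads were apportioned, and for most subunits 1 row held nearly all counts. The leading row held 92.3% or more of the gene's counts in every library for CCT2, CCT3, CCT4, CCT6A and CCT8. CCT7, with 12 rows, departed most from this. Its leading row, whose count and FPKM imply a length of 1845 nucleotides, held 85% and 55.5% of the CCT7 counts in erianin replicates 1 and 2 (exact binomial 95% intervals 84.7% to 85.4% and 55% to 56%), against 89.8% and 84.8% in DMSO replicates 1 and 2 (89.4% to 90.1% and 84.4% to 85.2%). These intervals cover counting error only. The second row, with an implied length of 2029 nucleotides, was at 28.1 and 54.5 FPKM in erianin, against 7.98 and 10.6 FPKM in DMSO. Both erianin libraries lay above both DMSO libraries for that row. A fit over all 48163 rows with enough counts, added after the data had been seen, gave it a log2 fold change of 2.26 ± 0.47 (SE), with an adjusted p of 0.629 (edgeR).

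**Figure D5:**
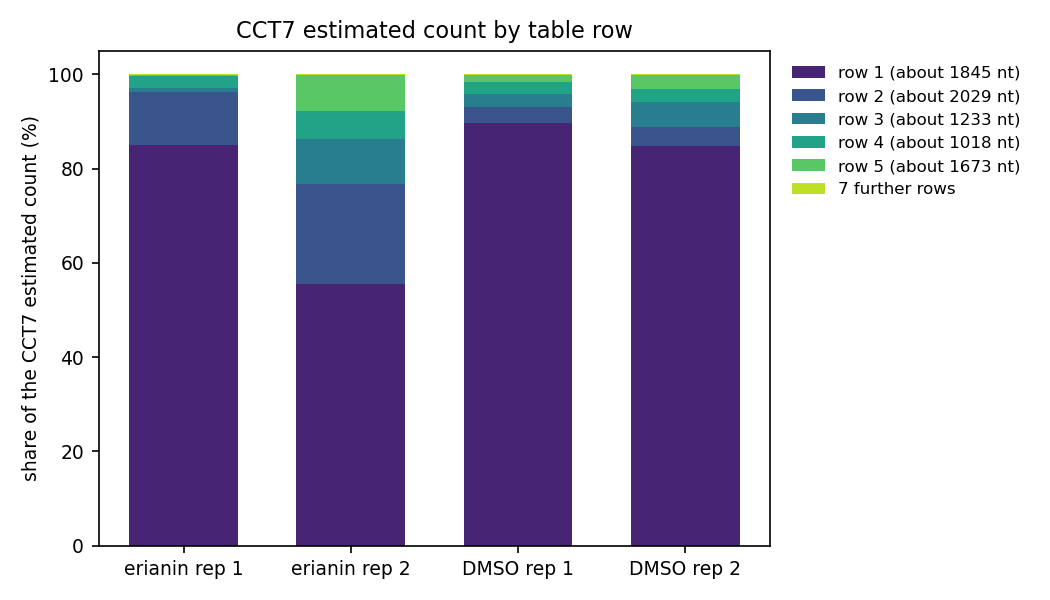
Share of the CCT7 estimated count held by each row of the table in each library, with the length implied by count and FPKM. The leading row holds 85% and 55.5% in erianin replicates 1 and 2, against 89.8% and 84.8% in DMSO replicates 1 and 2.

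TCP1 also had rows that differed between libraries. A row of 1877 implied nucleotides had 968 and 13 counts in the erianin libraries, against 0 and 34 counts in the DMSO libraries, so it rested on erianin replicate 1. Another, of 562 implied nucleotides, had 1 count in each erianin library, against 148 and 75 counts in the DMSO libraries (edgeR over rows, adjusted p = 0.624). Of the 31 subunit rows tested, 0 passed edgeR's test and 3 had an unadjusted p under 0.05, against 0 and 5.91% of all rows. When only the leading row of each gene was used in place of the sum, the log2 fold change of CCT7 turned to -0.22 and that of TCP1 went to -0.48, and 0 of 8 passed. The names of these transcripts are not given in the table.

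Near copies and overlapping genes were looked at for reads they could share with the subunits. Pseudogenes named after the subunits with a row in the table (CCT5P1, CCT6P1, CCT6P2, CCT6P3, CCT8P1, TCP1P1 and TCP1P3) had between 0 and 62 counts in a library, and with them summed in, the median log2 fold change stayed at -0.34. The exons of TCP1 share 397 bases (8.05% of its exon bases) with ACAT2 on the opposite strand. ACAT2 had 4551 and 3908 counts in erianin replicates 1 and 2, against 5169 and 4694 counts in DMSO replicates 1 and 2. The exons of CCT4 share 275 bases (9.72%) with the antisense gene AC107081.2, which had 0 or 1 count in each library. They also share 81 bases (2.86%) with COMMD1, which had 700 and 751 counts in erianin, against 849 and 778 counts in DMSO. For CCT5, 30.1% of the exon bases overlap the antisense gene AC012640.4, which has no row in the count table. Whether the counting used strand is not given in the sources used here, so these 3 subunits are uncertain to that extent.

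The partners, substrates and fellow chaperones of CCT did not pass either: over 8 lists of 57 measured genes, 0 passed edgeR's test and 4 had an unadjusted p under 0.05, a share near the 8.10% of all genes. Prefoldin, which delivers the substrates, had 4 of 6 subunits above 0 and a median log2 fold change of 0.02, which turned to -0.08 with library totals. PFDN4 was at 163 and 198 CPM in erianin, against 150.3 and 152 CPM in DMSO, a log2 fold change of 0.26 ± 0.11 (SE), and PFDN5 had one of 0.12 ± 0.13 (SE). Both erianin libraries were above both DMSO libraries for 1 of the 6 prefoldin genes (PFDN4), against 21.7% of all genes tested. Of the phosducin-like cochaperones, PDCL3 was at -0.34 ± 0.17, PDCL at -0.29 ± 0.22 and TXNDC9 at 0.18 ± 0.14 (log2 fold change ± SE). Of the divergent relatives of the subunits, MKKS was at -0.20 ± 0.16 and BBS10 at -0.14 ± 0.37 (log2 fold change ± SE). All 4 tested were below 0 with a median of -0.17. With the GC and length trend removed, 3 of 4 were above 0, with a median of 0.07. CCT6B, known for its expression in testis, was at 0.0942 and 0.414 CPM in erianin, against 0.455 and 0.497 CPM in DMSO.

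The tubulin and actin substrates lay on the other side of 0 from the 6 low-GC subunits in the main fit. As a set they did not with the GC and length trend removed, and GC was not removed apart from length. All 13 genes had a log2 fold change above 0, between 0.03 and 0.24 with a median of 0.12. With library totals 9 of 13 were above 0 (median 0.02), and with the GC and length trend removed 5 of 13 (median -0.02). Of the 13, 0 passed edgeR's test, against 0.0410% of all genes tested, and 0 had an unadjusted p under 0.05, against 8.10%. TUBA4A, an alpha tubulin, was at 0.24 ± 0.11, and TUBG1, the gamma tubulin of the centrosome, at 0.19 ± 0.11 (log2 fold change ± SE). Among 11 other proteins known to need CCT, 8 were above 0 with a median of 0.13. With the GC and length trend removed, 7 were above 0 with a median of 0.01. MLST8, the mTOR complex subunit that CCT folds, was at 229 and 288 CPM in erianin, against 209 and 212 CPM in DMSO, a log2 fold change of 0.30 ± 0.12 (SE). FZR1, an activator of the anaphase-promoting complex, had one of 0.28 ± 0.10 (SE). These genes also differ from the subunits in GC content: FZR1 and MLST8 have 64.0% and 64.5%. The cofactors that act on tubulin after CCT had 5 of 6 members above 0 and a median of 0.16 (0.06 with the GC and length trend removed). Among them, ARL2 was at 0.20 ± 0.11 and TBCD at 0.17 ± 0.09 (SE).

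Other chaperones included genes with values like those of the 6 subunits. Of 12 cytosolic heat shock genes, 8 were below 0 in log2 fold change. With the GC and length trend removed, 10 of 12 were below 0 (medians of -0.17 in both). Of these genes 0 passed edgeR's test, against 0.0410% of all genes tested, and 2 had an unadjusted p under 0.05, against 8.10%. HSP90AA1, the inducible HSP90, was at 175 and 127 CPM in erianin, against 209.8 and 195 CPM in DMSO, a log2 fold change of -0.42 ± 0.15 (SE). HSPA8, the constitutive HSP70, had one of -0.32 ± 0.12 (SE), and HSF1, the activator of heat shock genes, one of 0.18 ± 0.10 (SE). HSPD1, the ring subunit of the mitochondrial chaperonin, was at 184 and 121 CPM in erianin, against 209 and 194 CPM in DMSO, a log2 fold change of -0.40 ± 0.18 (SE). Its lid HSPE1 had one of 0.08 ± 0.13 (SE). HSP90AA1, HSPA8 and HSPD1 have 45.2%, 47.0% and 44.2% GC, and HSF1 64.7%. The direction of these lists was not tested against that of CCT.

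The pattern of the subunits over the 4 libraries was also compared with single genes. The mean of the 8 centred log2 CPM profiles was 0.00 and -0.25 in erianin replicates 1 and 2, against 0.21 and 0.05 in DMSO replicates 1 and 2. Among 4125 other protein-coding genes averaging 5 or more in log2 CPM, those at the smallest Euclidean distance to it were RPL14 and RPL11, genes of ribosomal proteins of the large subunit, CBX3, of heterochromatin, ATP6V1H, of the vacuolar proton pump, and DDX52, an RNA helicase (distances 0.0164 to 0.0285 over 4 libraries). RPL14 was at 207 and 175 CPM in erianin, against 236 and 212 CPM in DMSO. The subunits themselves lay from 0.124 (CCT4) to 0.500 (CCT7) from their mean. The 5 genes were picked for their small distances, so the larger distances of the subunits are not a comparison of closeness. The GC contents of these 5 genes ran from 39.5% (CBX3) to 48.0% (ATP6V1H).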

How the data were processed

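RNA sequencing of SW1990 cells gave 2 erianin and 2 DMSO libraries, grouped by sample title. Since no label tells separate cultures from repeat libraries of one culture, the p-values reflect a spread that could be technical. TRIzol was used for extraction, per the labels' protocols. GRCh38, StringTie 2.2.1, STAR, featureCounts 2.0.1 and fastp are named, without roles, in the submitters' processing notes. The authors deposited whole-number counts, not normalized, on 107429 rows for 25798 gene IDs, and from their values these were taken here as estimated counts apportioned between rows. Plain counts had been planned for, but several rows per gene hold large unequal values, so rows were summed per gene ID. The authors also deposited FPKM for the same rows, per the file headers.

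The test was edgeR 4.0.16 (R 4.3.3): TMM factors (1.01 and 0.928 for erianin replicates 1 and 2, 1.04 and 1.03 for DMSO replicates 1 and 2), filterByExpr at a minimum count of 10, the quasi-likelihood F test with the group only, and Benjamini-Hochberg adjustment at 0.05. Standard errors are the log2 fold change over the square root of F. CPM are scaled to TMM-adjusted library sizes. Gene symbols came from a gene name table; positions, GC content and lengths came from GENCODE 29 on GRCh38 (97.8% of genes tested). The GC and length trend was fitted per library with splines (5 degrees of freedom, genes averaging 3 or more in log2 CPM) and used as an offset. Lengths implied by rows use library totals implied by genes with 1 row and 1 transcript. Alternatives used limma 3.58.1 and DESeq2 1.42.0. The edgeR step was checked on simulated data. The members, lists and tests were chosen with earlier results of these data known. All subunits are named; from each list the 2 genes with the smallest p, averaging 1 or more in log2 CPM, are named, and list genes beyond these were chosen after their values were seen.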

Additional observations from a re-analysis of the deposited data

How the results depend on the processing

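Across 18 other ways of fitting the data, the median log2 fold change of the CCT subunits stayed below 0, while the number of genes called was unstable. From -0.34 in the main fit, the median moved by less than the SD of the per-library median within groups, 0.21. That SD rests on 2 libraries a group and is large beside the median, so the size of the median, -0.51 to -0.17, was not stable. The count of all genes past the threshold, 7, became 2 with library totals alone and with limma on log2(FPKM + 1) or log2(FPKM + 0.1), 21 with the DESeq2 Wald test, 0 with limma-voom (9.79% at an unadjusted p under 0.05) and with only the highest row of each gene (4.59%). Leaving out 1 library gave 24 to 3166 genes, 0 to 6 CCT subunits, 0 to 21 of 57 partner genes and a median of -0.51 to -0.17. With the replicate number as a replicate block, 334 genes (1.95% of all), 2 subunits (CCT5 and CCT6A, at -0.37 and -0.42, edgeR adjusted p = 0.0446 and 0.032) and 2 partner genes passed. In that fit 6 of 8 subunits had an unadjusted p under 0.05 (edgeR), against 14.7% of all genes. With the GC and length trend removed as well, 15 genes (0.0898%) and 0 subunits passed (4 at an unadjusted p under 0.05, against 8.93% of all genes). The labels do not say that a number marks a shared culture, and the check with only 2 pairs (correlation of deviations 0.222) does not settle it.

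With the GC and length trend removed and 1 library left out, combinations chosen after seeing the data, 12, 38, 802 and 24 genes (without DMSO replicates 1 and 2 and erianin replicates 1 and 2), 0 to 3 subunits and 0 to 10 partner genes passed, and the median was -0.26 to -0.0745. It was -0.0745 without DMSO replicate 1 and -0.0957 without erianin replicate 2. The trend removed with only the highest row gave 0 genes. CCT3, at 0.00, changed sign to -0.0957 with library totals, -0.0915 and -0.0920 with log2(FPKM + 1) and log2(FPKM + 0.1), and -0.0399 with the trend removed, with or without the block. Leaving out 1 library gave it -0.0198 (without erianin replicate 2) to 0.0194, with -0.0126 without DMSO replicate 1. With the trend removed as well it was -0.0408 and -0.0377 without DMSO replicates 1 and 2 and -0.0336 and -0.0492 without erianin replicates 1 and 2, and with only the highest row -0.0378. CCT7 turned to -0.22 with only the highest row, -0.27 with the trend removed too, and -0.0251 with the trend removed and without erianin replicate 2. CCT8 turned to 0.0417 with the trend removed and without DMSO replicate 1. The other subunits kept their sign in all of these fits. The causes were not tested. With 2 libraries a group, the width of the subunits' intervals limits what can be called.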
